A study of Oryza sativa Japonica Group with 8 samples.

Results

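The genes described here are those whose signal in rice leaf blades was at least 64 times higher after linalool than in mock-treated leaves, a difference of at least 6 on the log2 scale between the group means. The rule that chose them used the same arrays and the same difference that are given below, so the size of that difference is a description and carries no test. A gene here is a locus named on the array, represented by its brightest probe among those well above background (a flag of the scanner software) on at least 4 of the 8 arrays. Of 22484 such genes, 98 reached the difference, which is a percentage called of 0.436. The rule left out 5 pathogenesis-related (PR) genes, and the remaining 93 are the raised genes of this account. For comparison, 45 genes were lower by at least 6. Of all tested genes limma called 67.6% changed in either direction (adjusted p under 0.05).

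Linalool is an acyclic monoterpene alcohol that plants emit as a volatile, and rice leaves release it after wounding and attack. Genes with very large increases in a leaf under stress include those for PR proteins, transporters that export hydrophobic compounds and enzymes of detoxification. Where a gene is nearly silent in the resting leaf, the size of its fold change depends on how well that resting level can be measured.

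The comparison used 8 one-colour arrays, 4 from the fifth-leaf blades of five-leaf-stage plants treated with 10 μM linalool for 24 h, and 4 from blades of mock plants, which the characteristics field lists as given no treatment. All plants were of the japonica cultivar Hinohikari and grew in a growth chamber. The labels do not say whether replicates came from separate plants or pools, so the p-values for other genes measure only the spread between these samples. By the scanner headers the linalool arrays shared 1 slide and the mock arrays a different one, and the effects of slide and treatment cannot be told apart. Fewer cells of a kind and less RNA per cell cannot be told apart either in whole leaf blades.

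Levels are log2 of the processed signal minus the array's 75th percentile, so 0 is the signal of that percentile. They compare arrays for 1 probe, and a brighter probe does not show that its gene has more transcripts than another gene. The 75th percentile itself was 1092 to 1605 signal units on the linalool arrays and 850 to 1000 on the mock arrays, and 73.3 to 77.3% of spots were well above background. No spot was saturated. Among green-leaf markers, Rubisco activase (Os11g0707000) averaged 6.96 with linalool and 9.03 in mock, and a Rubisco small subunit gene (Os12g0274700) averaged 6.49 with linalool and 9.08 in mock. The photosystem I subunit gene Os05g0560000 averaged 5.77 with linalool and 7.74 in mock. All 3 leaf markers were thus well above background on every array and lower with linalool, and their part in the differences below was not tested. The root transporter gene Lsi1 (Os02g0745100) was also well above background on every array, and averaged -0.86 with linalool and -1.67 in mock. An endosperm glutelin gene (Os01g0762500) was dim, with 0 of 8 arrays well above background.

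All 93 raised genes were well above background on every linalool array. In mock they fell into 3 classes: 30 were well above background on all 4 mock arrays, 25 on 1 to 3, and 38 on none. The 38 passed the filter on dim probes through the linalool arrays alone, so they had to differ, and their mock levels are uncertain. For them a floored fold is given. The floor of an array is the lowest signal of any probe well above background on it. Mock values under the floor were raised to it. Those above it were kept, also where the gene was not well above background on that array. The floored fold sets the linalool mean against the mock mean after that step. It is not a lower limit for every processing. After the normexp background correction described below, these 38 genes had a median difference of 2.93 on the log2 scale. The floored fold was between 58.2-fold and 1647-fold, with a median of 118.4-fold, and it fell under 64-fold for 4 of the 38. The 30 genes measured on all arrays were higher by 64.6-fold to 679-fold, with a median of 138.8-fold.

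Over the 93 genes the median difference was 7.08 on the log2 scale, and 6.99 with dim mock values raised to that lowest signal, against -0.12 for all tested genes. Differences of at least 8 were found for 23 genes, 7 to 8 for 28, and 6 to 7 for 42, and a further 65 genes lay between 5 and 6. The median of the linalool means was 0.475, against -6.97 for the mock means. In mock, no raised gene averaged above the 75th percentile of its arrays, and with linalool 55 of the 93 did. The lowest linalool array lay above the highest mock array for all 93 genes (percentage called over all tested genes, 26.9), which the rule nearly fixes. The gap between those 2 arrays was smallest for Os03g0663500, at 2.96, had a median of 5.84, and was at least 6 for 45 genes.

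**Figure D1:**
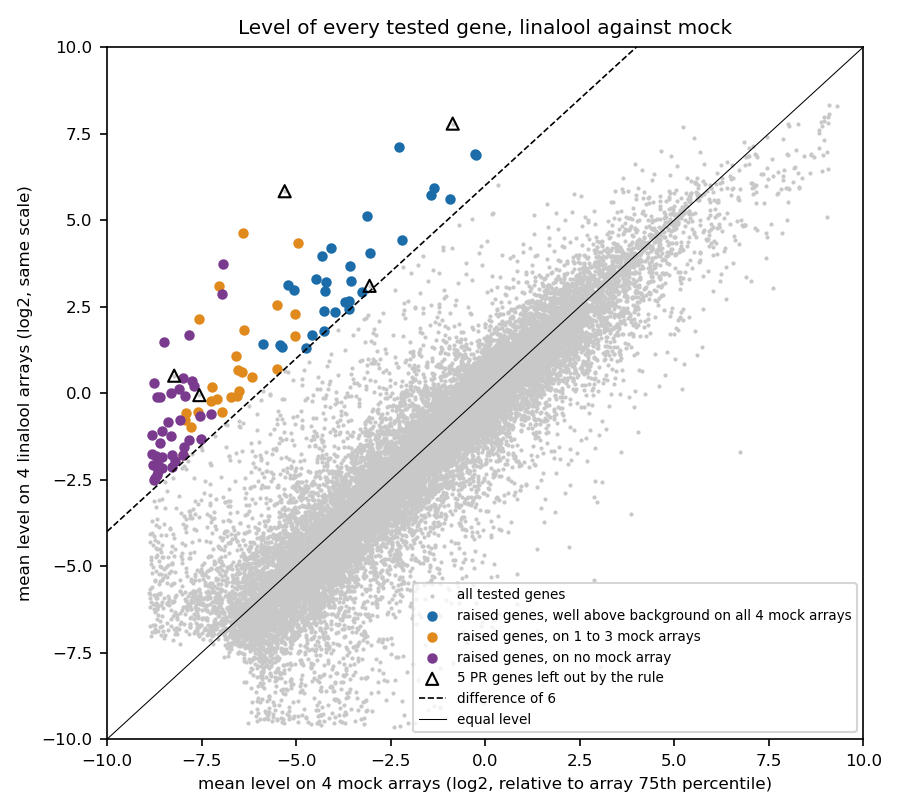
Mean level on the 4 linalool arrays (vertical axis, log2 relative to the array's 75th percentile) against the mean on the 4 mock arrays (horizontal axis, same scale) for 22484 tested genes in grey. The 93 raised genes are coloured by the number of mock arrays on which they were well above background, and lie on or above the dashed line of difference 6; triangles are the 5 PR genes left out by the rule.

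Among the 30 genes measured on all 8 arrays, Os12g0555300 had the largest difference. By its number this locus lies between the PR10 genes Os12g0555200 and Os12g0555500, both left out by the rule. PR10 proteins are small intracellular proteins that accumulate in attacked rice tissue, but no annotation given here names Os12g0555300 itself. Its levels were 7.44, 7.11, 6.96 and 6.98 on linalool arrays 1 to 4, against -1.77, -1.06, -3.09 and -3.23 on mock arrays 1 to 4. The linalool arrays lay within 0.48 of each other and the mock arrays within 2.17. The means were 7.12 ± 0.22 on the linalool arrays and -2.28 ± 1.05 on the mock arrays (SD, n = 4 each), a 679-fold difference.

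The other genes of the 10 with the largest differences in this class carry no name in the files, and their levels were measured with very unequal spread in mock. Os07g0638400 had levels of 2.53, 2.54, 3.43 and 3.95 on linalool arrays 1 to 4, against -6.43, -3.01, -5.09 and -6.35 on mock arrays 1 to 4. Mock array 2 stood above the other 3, and linalool arrays 3 and 4 above 1 and 2. The fold was 322, and a second probe gave a difference of 7.56. Os10g0513900 had levels of 4.19, 4.10, 4.19 and 4.27 on linalool arrays 1 to 4, against -4.12, -3.62, -4.22 and -4.34 on mock arrays 1 to 4. Here every array of a group lay close to the others, and the means were 4.19 ± 0.07 on the linalool arrays and -4.08 ± 0.32 on the mock arrays (SD, n = 4 each), a 307-fold difference.

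Os09g0367700 had levels of 4.66, 4.57, 5.70 and 5.55 on linalool arrays 1 to 4, against -2.07, -2.24, -3.40 and -4.77 on mock arrays 1 to 4. Linalool arrays 3 and 4 were the higher pair, and mock arrays 1 and 2 were the higher pair in mock. The fold was 302. Os05g0522600 averaged 5.93 ± 0.10 on the linalool arrays and -1.35 ± 0.41 on the mock arrays (SD, n = 4 each) and differed by 155-fold, with a range of 0.95 in mock. A second probe of this locus, well above background on no mock array, gave a smaller difference, 4.82, whose size is uncertain. For Os03g0769700 the means were 3.22 ± 0.11 on the linalool arrays and -4.22 ± 0.23 on the mock arrays (SD, n = 4 each), a 173-fold difference with little spread in either group. Os04g0339400 averaged 3.29 ± 0.14 on the linalool arrays and -4.47 ± 0.75 on the mock arrays (SD, n = 4 each) and differed by 217-fold. Mock array 2 was its highest mock array. Os10g0535800, with means of 2.97 ± 0.07 on the linalool arrays and -5.05 ± 0.87 on the mock arrays (SD, n = 4 each), differed by 259.6-fold and also had its highest mock signal on array 2.

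Os02g0811800 had the tightest mock values of these 10, 1.01, 0.85, 1.98 and 1.83 on linalool arrays 1 to 4, against -5.85, -5.83, -6.05 and -5.82 on mock arrays 1 to 4. Its linalool arrays spread over 1.12, more than its mock arrays at 0.23. The fold was 158. A second probe of this locus, well above background on no mock array, gave a difference of 5.92 (means of -2.11 with linalool and -8.03 in mock). Os01g0860500 is the gene whose tested probes differed most. Its brightest probe averaged 3.97 ± 0.14 on the linalool arrays and -4.32 ± 1.33 on the mock arrays (SD, n = 4 each), a difference of 8.29. The other 7 tested probes under this locus name gave differences of 3.45 to 5.53. The array's second name for the brightest probe is another locus, Os01g0860601, so signal from the 2 loci cannot be told apart here.

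**Figure D2:**
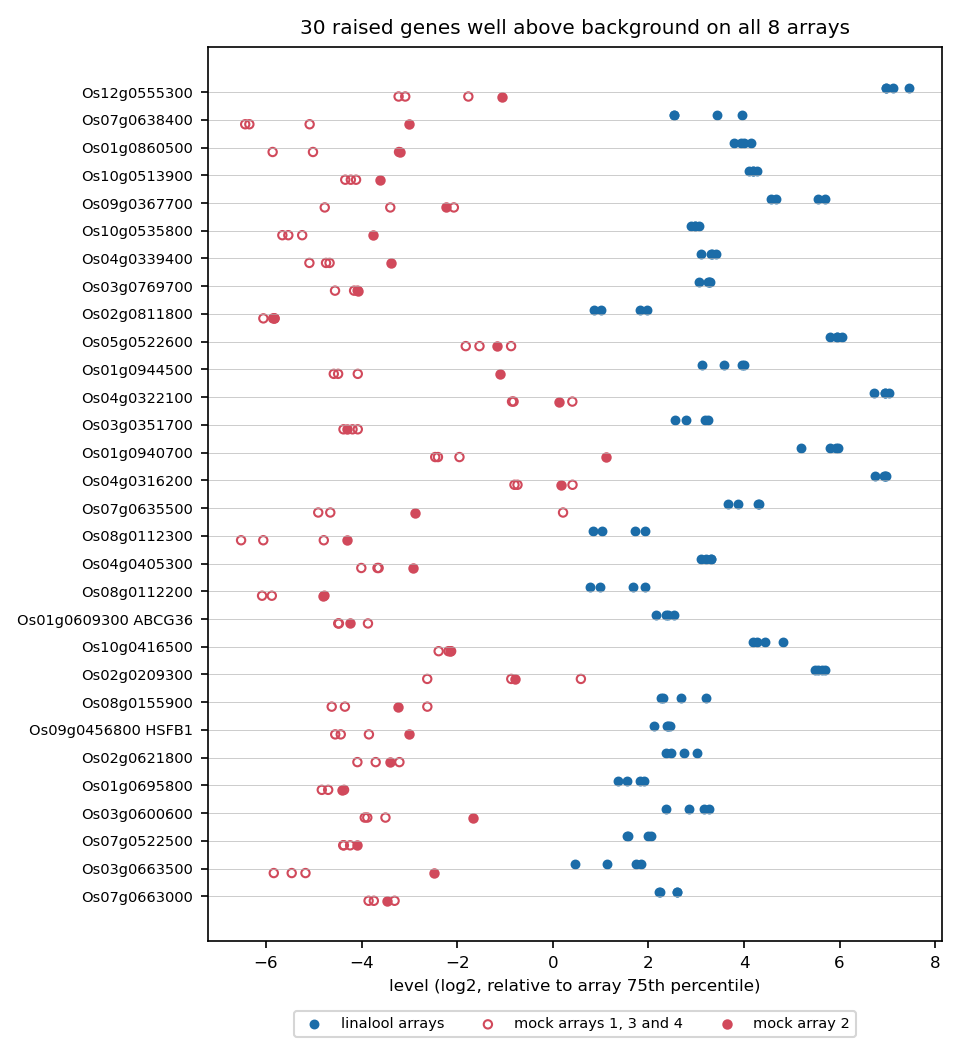
Levels on each array (horizontal axis, log2 relative to the array's 75th percentile) for the 30 raised genes well above background on all 8 arrays, ordered by difference from top to bottom. Blue points are linalool arrays, open red points mock arrays 1, 3 and 4, and filled red points mock array 2, which is the highest mock array for 15 of the 30.

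Brightness and the size of the difference did not go together for every gene. The 10 brightest raised genes on the linalool arrays were Os12g0555300, Os04g0322100, Os04g0316200, Os05g0522600, Os01g0940700, Os02g0209300, Os09g0367700, Os07g0418500, Os10g0416500 and Os07g0419100. Os04g0316200 had levels of 6.94, 6.73, 6.94 and 6.96 on linalool arrays 1 to 4, against -0.74, 0.18, 0.41 and -0.80 on mock arrays 1 to 4. All linalool arrays lay within 0.23, and mock arrays 2 and 3 were the higher pair. The probe of Os04g0322100 is assigned to the same locus, Os04g0316200, by the array's second name, and its means were 6.91 ± 0.13 on the linalool arrays and -0.28 ± 0.65 on the mock arrays (SD, n = 4 each). These 2 entries are therefore uncertain as separate genes, as are Os08g0112200 and Os08g0112300, since the probe of Os08g0112200 has Os08g0112300 as its second name.

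Os01g0940700 had levels of 5.80, 5.20, 5.96 and 5.92 on linalool arrays 1 to 4, against -2.40, 1.10, -1.95 and -2.46 on mock arrays 1 to 4. Mock array 2 lay more than 3 above each of the other mock arrays, and without it the difference was 7.99, against 7.15 with all arrays. The other 3 probes of this locus gave differences of 7.16 to 7.18. Os10g0416500 averaged 4.43 ± 0.28 on the linalool arrays and -2.21 ± 0.12 on the mock arrays (SD, n = 4 each), and its 3 other probes gave 6.66 to 6.75. Os02g0209300 had levels of 5.70, 5.49, 5.56 and 5.63 on linalool arrays 1 to 4, against 0.59, -0.78, -0.87 and -2.63 on mock arrays 1 to 4. The linalool arrays lay within 0.21 of each other while the mock arrays ran over 3.21, and without mock array 4 its difference was 5.95, under the threshold.

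Among the 25 genes seen on only 1 to 3 mock arrays, Os07g0418500 had the largest computed difference. Its levels were 4.46, 4.53, 4.75 and 4.79 on linalool arrays 1 to 4, against -5.02, -5.23, -6.84 and -8.54 on mock arrays 1 to 4, with 2 mock arrays well above background. The linalool arrays lay within 0.34 of each other and the mock arrays were spread over 3.53, so the difference of 11.04 rests on mock values at the edge of detection. A second probe of the locus gave 11.16 (means of 4.61 with linalool and -6.54 in mock). Os02g0209400 had levels of 3.19, 3.02, 3.03 and 3.09 on linalool arrays 1 to 4, against -5.50, -6.29, -7.57 and -8.75 on mock arrays 1 to 4. Linalool values lay within 0.17, mock values over 3.25, and the difference was 10.11. Os01g0186600 averaged 2.15 ± 0.15 on the linalool arrays and -7.57 ± 1.42 on the mock arrays (SD, n = 4 each) and was well above background on 1 mock array. Os07g0419100 had levels of 3.87, 4.40, 4.62 and 4.51 on linalool arrays 1 to 4, against -2.41, -4.80, -5.78 and -6.75 on mock arrays 1 to 4. Mock array 1 was far above mock array 4. The difference of 9.29 used all 4 mock arrays, of which 3 were well above background.

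HSFA4D (Os05g0530400) was the only one of these 5 leading genes with a name. It encodes a class A heat stress transcription factor, a family that binds heat shock elements, and in rice loss of this gene is known to give leaves with spontaneous spots. Its levels were 1.91, 1.89, 1.77 and 1.70 on linalool arrays 1 to 4, against -5.59, -6.67, -6.25 and -6.98 on mock arrays 1 to 4. The linalool arrays lay within 0.21, the gene was well above background on 2 mock arrays, and the difference was 8.19. Its 3 other probes gave differences of 7.56 to 8.05.

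Among the 38 genes seen on no mock array, the largest floored fold was that of Os09g0444900. Its levels were 3.43, 3.04, 4.22 and 4.27 on linalool arrays 1 to 4, against -6.93, -6.66, -7.04 and -7.14 on mock arrays 1 to 4. Linalool arrays 3 and 4 were the higher pair, and the floored fold was 1647. The mock values all lay above the floor, so this is the plain ratio. Os11g0514500 averaged 2.87 ± 0.30 on the linalool arrays and -6.97 ± 0.70 on the mock arrays (SD, n = 4 each). Its floored fold of 918 is also the plain ratio. Os07g0635200 had levels of 0.92, 0.67, 2.12 and 2.22 on linalool arrays 1 to 4, against -8.74, -8.42, -8.37 and -8.45 on mock arrays 1 to 4. Its mock arrays were all at the bottom of the scale and its linalool arrays split into a lower and a higher pair, with a floored fold of 895. Os10g0527400 averaged 1.68 ± 0.44 on the linalool arrays and -7.83 ± 1.05 on the mock arrays (SD, n = 4 each), with a floored fold of 679. For Os01g0795400, with means of 0.30 ± 0.57 on the linalool arrays and -8.76 ± 0.23 on the mock arrays (SD, n = 4 each), linalool arrays 1 and 2 were instead the higher pair, and the floored fold was 415. After normexp correction the differences of these genes, in the order given, were 7.21, 6.52, 5.12, 5.21 and 4.07 on the log2 scale.

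Of the 93 genes, 6 carry a published symbol that the RefSeq gene table bears out, in that it holds a gene of that name on the chromosome and in the order that the locus number gives. A pair of them are ABC transporters of the pleiotropic drug resistance type, membrane pumps that in plants export hydrophobic compounds. ABCG36 (Os01g0609300) had levels of 2.37, 2.17, 2.53 and 2.41 on linalool arrays 1 to 4, against -3.87, -4.25, -4.49 and -4.47 on mock arrays 1 to 4. Both groups were tight, the fold was 99.7, and its other probes gave differences of 6.62 and 6.76. ABCG35 (Os01g0609200) had levels of -0.31, -0.01, 0.08 and -0.09 on linalool arrays 1 to 4, against -6.45, -6.51, -6.80 and -6.51 on mock arrays 1 to 4. It was well above background on 1 mock array, and its difference was 6.49. The neighbouring transporter gene ABCG37 (Os01g0609900) is not among the 93, with means of -2.44 with linalool and -4.36 in mock and a difference of 1.91 (limma, adjusted p = 0.00602).

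The second heat stress factor, HSFB1 (Os09g0456800), belongs to class B, whose members lack the activation motif of class A. Its levels were 2.42, 2.12, 2.46 and 2.38 on linalool arrays 1 to 4, against -4.43, -3.02, -3.85 and -4.55 on mock arrays 1 to 4. It was 79.1-fold higher with linalool, mock array 2 was its highest mock array, and a second probe gave a difference of 6.43. MT1B (Os03g0288000) encodes a type 1 metallothionein, a small cysteine-rich protein that binds metal ions. Its levels were -2.14, -2.67, -1.19 and -1.11 on linalool arrays 1 to 4, against -8.91, -8.57, -9.07 and -8.67 on mock arrays 1 to 4. Linalool arrays 3 and 4 stood above 1 and 2, no mock array was well above background, and the floored fold was 98.5. A second probe, also seen on no mock array, gave a difference of 5.89. NSHB2 (Os03g0226200) encodes a non-symbiotic haemoglobin, a protein class that in plants scavenges nitric oxide. Its levels were -0.65, -0.96, -1.11 and -1.24 on linalool arrays 1 to 4, against -8.79, -7.28, -8.94 and -6.14 on mock arrays 1 to 4. It was well above background on 1 mock array, with a difference of 6.80, and a second probe gave 7.12.

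**Figure D3:**
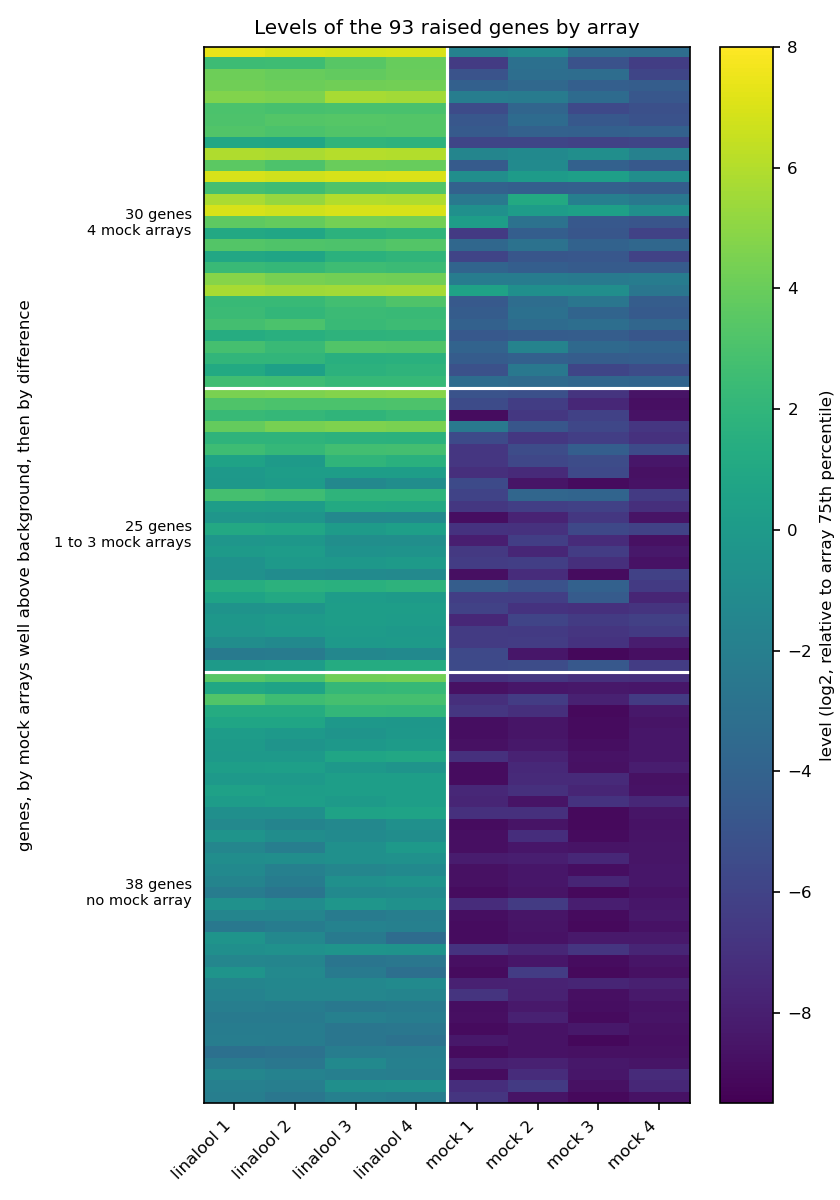
Levels of the 93 raised genes (rows) on linalool arrays 1 to 4 and mock arrays 1 to 4 (columns), coloured by log2 level relative to the array's 75th percentile. Rows are grouped by the number of mock arrays well above background (30 genes on all 4, 25 on 1 to 3, 38 on none) and ordered within a group by difference.

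Within the groups the raised genes were more variable than genes at large. The median SD over the 4 linalool arrays was 0.32, against 0.16 for all tested genes, and that over the 4 mock arrays was 0.70, against 0.19. Mock SDs over 1 were found for 29 of the 93, of which 11 were well above background on all mock arrays, and linalool SDs over 1 for 2. The raised genes were dim in mock, with a median mock level that 2.4% of tested genes lay below, and the part of dimness in these spreads was not tested.

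The largest SD was that of Os07g0635500, with levels of 3.67, 3.88, 4.32 and 4.30 on linalool arrays 1 to 4, against 0.21, -2.89, -4.65 and -4.91 on mock arrays 1 to 4. Mock array 1 lay close to the array's 75th percentile while arrays 3 and 4 were more than 4 below it, and the groups remained 3.46 apart. The SD was also among the 5 largest for Os07g0419100, Os01g0940700 and Os07g0418500, described above, and for Os01g0944500, whose levels were 3.58, 3.11, 4.01 and 3.96 on linalool arrays 1 to 4, against -4.49, -1.11, -4.08 and -4.58 on mock arrays 1 to 4. Mock array 2 again stood alone there. The 2 genes with linalool SDs over 1 were the neighbours Os08g0136500 and Os08g0136700. Os08g0136500 had levels of -0.45, -1.32, -2.33 and -3.29 on linalool arrays 1 to 4, against -8.89, -8.63, -8.31 and -8.33 on mock arrays 1 to 4, and Os08g0136700 had -0.44, -1.29, -2.35 and -3.08 on linalool arrays 1 to 4, against -8.97, -6.39, -9.09 and -8.74 on mock arrays 1 to 4. Both were highest on linalool array 1 and lowest on linalool array 4.

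Particular arrays recurred in these spreads. Mock array 2 was the highest mock array for 43 of the 93 genes (46.2%), against 18.3% of all tested genes. Among the 30 raised genes well above background on all mock arrays it was so for 15. The raised genes were dimmer in mock than genes at large, and the part of dimness in these shares was not tested. Mock array 2 was at least 1 above each other mock array for 10 genes (10.8%), against 0.59% of all tested genes. Mock arrays 1, 3 and 4 were so for 6, 4 and 1 of the raised genes. The largest excesses were 3.06 for Os01g0940700, 2.97 for Os01g0944500 and 2.68 for Os03g0663500. Without mock array 4, 6 of the 93 genes fell short of the rule, and without mock array 3, 5 did; leaving out mock array 2, the highest for many of them, lost none. On the linalool side, arrays 1 and 2 both lay below arrays 3 and 4 for 45 genes (48.4%), against 27.4% of all tested genes, and both lay above them for 26 (28.0%), against 36.4%. What set these arrays apart was not tested.

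Further probes of the same loci, read on the same arrays, passed the filter on dim probes for 29 of the 93 genes, 46 probes in all. Of these, 20 were well above background on no mock array, so they passed through the linalool arrays alone and had to be higher. The 17 that were well above background on all 4 mock arrays belonged to 9 genes and differed by 4.51 to 8.31, and 14 of them reached 6. The 3 that did not were all probes of Os01g0860500. A further 9 probes were seen on 1 to 3 mock arrays, with differences of 4.71 to 11.16. One further probe, of Os03g0757600, did not pass the filter and gave 0.60. Over the 46, the lowest apart from Os01g0860500 were 3.56 for Os03g0326200, against 6.66 for its brightest probe, and 4.17 for Os03g0661600, against 8.54. Both of these lower probes were well above background on no mock array, so the size of their differences is uncertain. With the mean over all tested probes of a locus, 26 of the 29 genes with more than 1 tested probe had a difference of at least 6, and the exceptions were Os01g0860500 (5.11), Os03g0326200 (5.11) and Os08g0136700 (5.97).

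The raised genes were spread over all 12 chromosomes, with 16 on chromosome 3, 14 on chromosome 1 and 10 each on chromosomes 4, 7 and 8. As a share of the tested genes this was 0.17% on chromosomes 6 and 11 at the low end and 0.65% on chromosome 8 at the high end. Locus numbers follow the order of genes along a chromosome. Runs were formed from raised genes whose numbers differ by at most 3000 from the next, and 28 of the 93 (30.1%) fell into 13 runs. The share for other sets of 93 tested genes was not computed, so this share does not show clustering. Only the run on chromosome 7 that starts at Os07g0635200 held 4 genes, and the others held 2.

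The chromosome 7 run consisted of Os07g0635200, Os07g0635300, Os07g0635500 and Os07g0638400, whose mock signals were not equally well measured. Os07g0635500 and Os07g0638400, measured on all mock arrays, had differences of 7.10 and 8.33. Os07g0635200, seen on no mock array, had a floored fold of 895, and Os07g0635300 was seen on 1. Os07g0635300 averaged -0.18 ± 0.25 on the linalool arrays and -7.11 ± 1.11 on the mock arrays (SD, n = 4 each). Around them 42 other genes were tested, of which 12 rose and 11 fell (limma, adjusted p under 0.05). Over all tested genes the percentage called was 28.5 higher and 39.0 lower. The share that rose was thus near the background, and the share that fell was under it. The highest of the 42, Os07g0639900, differed by 2.53. The other chromosome 7 run joined Os07g0418500 and Os07g0419100. Between and around them the highest of 24 other genes, Os07g0419200, differed by only 0.77.

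On chromosome 1, ABCG35 and ABCG36 formed one run, and Os01g0795200 and Os01g0795400 the other. Os01g0795200 averaged -2.17 ± 0.22 on the linalool arrays and -8.56 ± 0.47 on the mock arrays (SD, n = 4 each), with a floored fold of 70.8. Between it and Os01g0795400, Os01g0795300 differed by 1.05. On chromosome 2, Os02g0209300 and Os02g0209400 adjoin, and Os02g0811800 ran with Os02g0813600. Os02g0813600 averaged -1.83 ± 0.36 on the linalool arrays and -8.70 ± 0.29 on the mock arrays (SD, n = 4 each), with a floored fold of 94.97.

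Chromosome 3 held 2 runs. Os03g0661600 averaged -0.13 ± 0.26 on the linalool arrays and -8.67 ± 0.26 on the mock arrays (SD, n = 4 each), with a floored fold of 308, and Os03g0663500 lay near the threshold. Beside them Os03g0663400 and Os03g0664800 missed the threshold with differences of 5.72 and 5.35. Os03g0757600 averaged -1.97 with linalool and -8.21 in mock, with a floored fold of 72.8 and a second, untested probe at 0.60. Os03g0760000 averaged -1.21 with linalool and -8.80 in mock, with a floored fold of 146. On chromosome 5, Os05g0145100 had a difference of 8.05 with 3 mock arrays well above background, and Os05g0147800 had a floored fold of 59.5.

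Chromosome 8 held 3 runs. Os08g0112200 and Os08g0112300 gave nearly equal values, with differences of 6.72 and 6.80, and are uncertain as separate genes for the reason given above. Os08g0136500 and Os08g0136700 had floored folds of 87.9 and 71.1. In that window Os08g0139700 fell by 6.94 on the log2 scale and Os08g0137400 by 5.24 (limma, adjusted p under 0.05). Os08g0155900 was 80.3-fold higher, and Os08g0156100 had a floored fold of 287.

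On chromosome 10, Os10g0527400 ran with Os10g0527800, which averaged 0.69 ± 0.68 on the linalool arrays and -5.50 ± 0.69 on the mock arrays (SD, n = 4 each). Of the 24 other genes in this window 13 were called higher and 10 lower, including Os10g0529500 at 5.82 and Os10g0529300, which fell by 6.11 on the log2 scale. Over all 13 windows, 417 other genes were tested. Of these 136 rose and 146 fell, and 32.6% were thus higher, against a percentage called of 28.5 for higher, 39.0 for lower and 67.6 for either over all tested genes (limma, adjusted p under 0.05). Their median difference was -0.085, against -0.12 for all tested genes, so the counts around the runs were near the background.

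**Figure D4:**
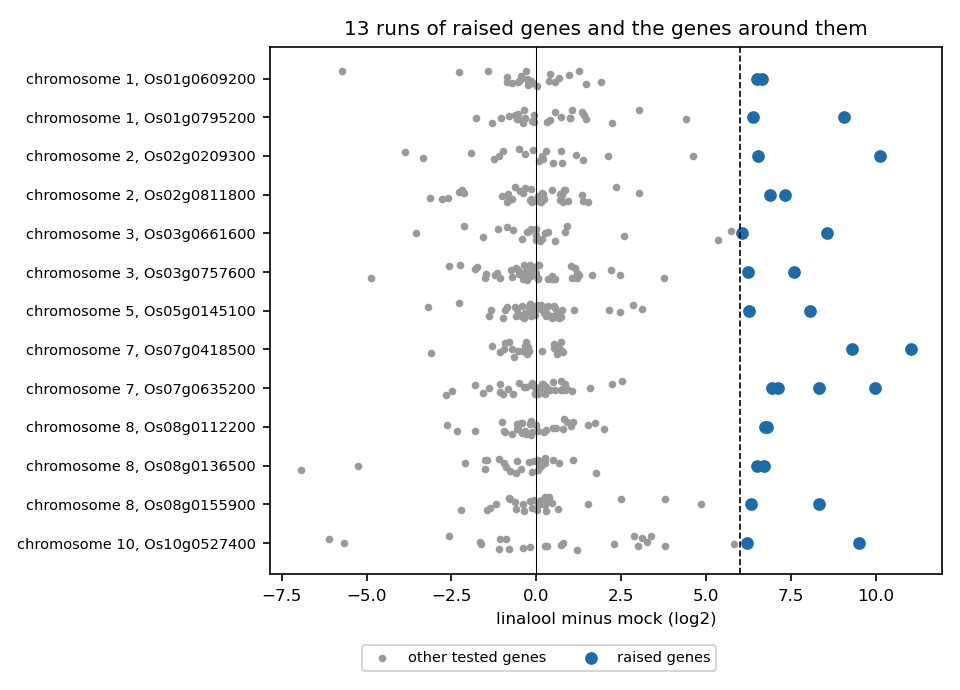
Difference between linalool and mock means (horizontal axis, log2) for the genes of each of the 13 runs (blue) and the 417 other tested genes around them (grey, jittered vertically). The dashed line marks a difference of 6. Grey points lie on both sides of 0, and none lies past the line because a gene there would count as raised.

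Near the threshold the choice of 6 separates genes with almost the same values. Just inside were Os07g0663000 at 6.01, Os03g0663500 at 6.04 and Os07g0522500 at 6.06. Os07g0663000 averaged 2.42 ± 0.21 on the linalool arrays and -3.60 ± 0.25 on the mock arrays (SD, n = 4 each), and Os07g0522500 averaged 1.79 ± 0.26 on the linalool arrays and -4.27 ± 0.13 on the mock arrays (SD, n = 4 each), both with small spread. Os03g0663500 had levels of 1.13, 0.47, 1.74 and 1.85 on linalool arrays 1 to 4, against -5.17, -2.49, -5.84 and -5.46 on mock arrays 1 to 4, with mock array 2 far above the rest. Just outside were Os09g0555100 at 5.99, Os02g0546600 at 5.99 and Os03g0320600 at 5.96.

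Of the 5 PR genes left out by the rule, PR10 gene Os12g0555000 had levels of 6.10, 5.67, 5.73 and 5.83 on linalool arrays 1 to 4, against -5.49, -1.57, -6.93 and -7.22 on mock arrays 1 to 4, a difference of 11.14 with mock array 2 far above the others. PR10 gene Os12g0555500 averaged 7.79 with linalool and -0.86 in mock, a difference of 8.65, and Os12g0555200 had a floored fold of 387. The PR4 gene Os11g0592000 averaged -0.06 with linalool and -7.56 in mock, and the PR5 gene Os12g0628600, a thaumatin-like protein gene, averaged 3.099 with linalool and -3.059 in mock. In both, mock array 2 was again the highest mock array. In a list of 11 PR genes, which holds these 5 by choice, 10 were tested, of which 7 rose and 2 fell (limma, adjusted p under 0.05; percentage called over all tested genes, 28.5 higher and 39.0 lower), with a median difference of 5.69; as the list holds the 5, its count is not independent of the rule. In a list of 8 diterpenoid phytoalexin genes, which act in the synthesis of rice antimicrobial terpenoids, 3 were tested, 2 rose and 1 fell, and the highest difference was 5.41; with a percentage called of 67.6 in either direction over all tested genes, this count says little about the list. No gene of either list is among the 93, which the rule fixed for the 5 left-out PR genes and the filter for genes not tested.

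**Figure D5:**
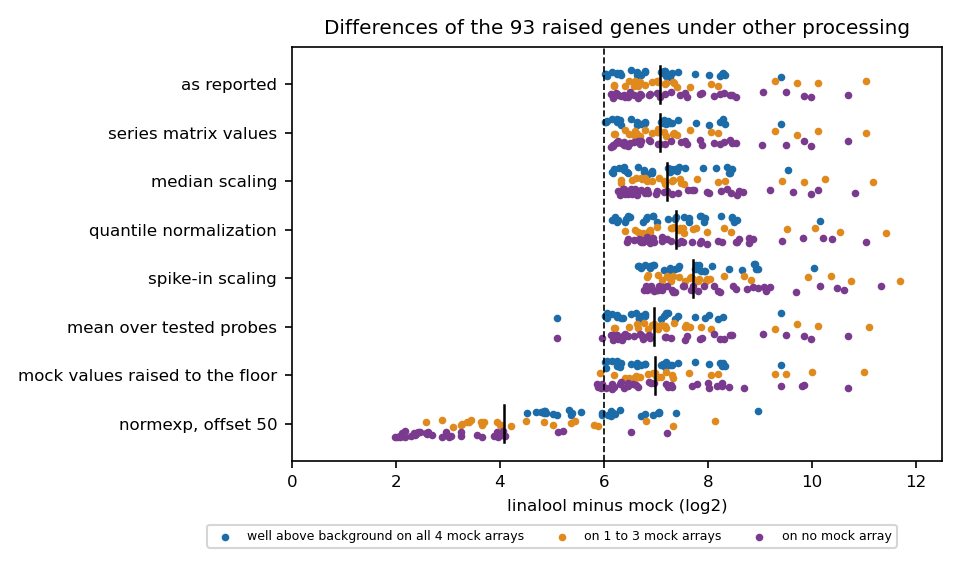
Difference between linalool and mock means (horizontal axis, log2) for each of the 93 raised genes under the reported processing and 7 alternatives, coloured by the number of mock arrays well above background; black bars are medians and the dashed line marks 6. The median is 7.08 as reported and 4.08 after normexp background correction, where the genes seen on no mock array have a median of 2.93.

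The fold sizes depended on how dim signals were treated. After a normexp background correction with an offset of 50 on the raw median signals, the 93 genes had differences of 1.99 to 8.95, and only 20 reached 6. That all stayed higher with linalool was nearly fixed by the rule, which used the same arrays. Among the 30 genes measured on all arrays the median was 6.02 and 15 reached 6, and among the 38 seen on no mock array the median was 2.93. With the mock values raised to each array's lowest well-detected signal, 88 of the genes met the rule. That signal lay at -8.67 to -8.205 on the mock arrays. Undetected mock values of genes such as Os09g0444900 and Os11g0514500 lay above it, so the step left them unchanged. The 88 therefore does not show how much undetected mock signal matters.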

How the data were processed

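Intensity values came from one-colour Agilent rice arrays: the deposited scanner files hold the background-corrected processed signal and the raw median spot and background signals from Agilent Feature Extraction 10.7.3.1, per the file headers. The series matrix holds intensities deposited by the authors that are a constant per array times the processed signal (1.37 to 2.51 by array); the sources used here do not say how it was set. After scaling, the same 93 genes met the rule. Array 75th percentiles over non-control spots were subtracted from log2 processed signals and spots of a probe averaged (42477 probes, 33124 kept, in 22484 loci). The locus is the one in the probe name, and the array design was annotated on IRGSP5. limma 3.58.1 (lmFit and eBayes under R 4.3.3, Benjamini-Hochberg adjustment) was fitted to all genes and first tested on simulated data with 200 changed genes. The members, lists and named genes were chosen with earlier results of these data known. Values are given for the genes of largest difference in each detection class, the brightest, the most variable, those in runs, those with a symbol, and those nearest the threshold. Symbols come from general knowledge of published locus names, since neither the files nor the gene table pair loci with symbols; all 62 recalled names with a neighbour on both sides stood in the RefSeq table (ASM3414082v1) in the order of their locus numbers. The number of arrays limits the precision. Promoter motifs were not analysed here.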

Additional observations from a re-analysis of the deposited data

Results flagged for a closer look

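Of the groups of 4 arrays of the raised genes, 123 were searched, gene by gene, for 1 array standing apart. Such an array was found in 5 of them, where chance gives about 6. Mock array 2 was far above the other mock arrays for Os01g0940700, at 1.10 against -2.46 to -1.95, and for Os01g0944500, at -1.11 against -4.58 to -4.08. Mock array 3 was below the others for Os02g0811800, at -6.05 against -5.85 to -5.82. Linalool array 1 was below the others for Os06g0649000, at -0.023 against 0.21 to 0.24, and linalool array 2 for Os04g0316200, at 6.73 against 6.94 to 6.96.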

How the results depend on the processing

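The number of genes meeting the rule was 93, and 88 to 100 without each array in turn. It was 20 after normexp background correction, 30 when only probes well above background on all 8 arrays were kept, 158 at a difference of at least 5 and 51 at one of at least 7. The share of the 93 that met the rule again was 93.5 to 100.0% without each array and 21.5% after normexp correction. With the stricter filter it was 32.3%, which is fixed, since that filter keeps just the 30 measured on all arrays. The median difference of the 93 was 6.90 to 7.17 without each array. It was 4.08 after normexp correction and 7.72 with spike-in scaling (6 of 10 spike-in probes). Without 1 array or another, 11 of the 93 fell under the threshold. Quantile, median and spike-in scaling kept all 93 and added 19, 10 and 40 genes. Over all genes, 15192 passed limma, 13963 to 15220 without each array, and 5823 after normexp correction. The share of higher among called genes was 42.2%, 52.7% after normexp correction and 77.6% with spike-in scaling, which moved the median difference of all genes to 0.53. Around the runs, normexp correction gave 74 higher and 46 lower of the 417, against 3067 and 2756 of all 22484 genes. Spike-in scaling gave 238 and 57 there, against 12038 and 3484 of all genes. In the PR list 4 rose with the stricter filter and 0 fell after normexp correction. In the diterpenoid list, normexp correction and the stricter filter left 0 higher and 0 lower, quantile and spike-in scaling left 0 lower, and no filter gave 3 lower. The stricter filter tests fewer probes, so its lower list counts can come from list genes left untested, and no filter lets more list genes in. Of all 20134 genes under the stricter filter, 5661 were higher and 7962 lower. With no filter 6449 of 29689 genes were higher and 12874 lower, and with quantile scaling 7519 and 7368 of 22484. The normexp setting changed the input signal, the background model and the offset together, and the causes of its shifts and of the others were not tested. With the replicate number as a replicate block 14457 genes passed. Deviations of same-numbered arrays correlated at 0.012, 0.152, 0.099 and -0.095, and not every array correlated best with its own number, so the numbers were not taken to pair arrays. Among 955 recomputed differences of 58 named genes, 73 moved beyond the spread between arrays. Leaving out 1 array of 4 cannot shift a difference that far, so the 955 includes values that had to stay. After normexp correction 46 of the 58 genes moved, and with spike-in scaling 19 did. No recomputed difference changed sign, but these genes were chosen for differences near or above 6 on the same arrays, which nearly fixed that.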
